A study of Mus musculus with 22 samples.

Results

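Resting bone marrow-derived macrophages (BMDM) that lack the protein kinase MK2 were compared with wild-type (wt) BMDM in the absence of any added stimulus. The comparison used the 4 MK2-/- and the 4 wt medium samples of a series of 22 samples, chosen by genotype and treatment in their titles. BMDM are macrophages grown in culture from mouse femur marrow with the growth factor M-CSF. The other 14 samples were LPS-treated cells of both genotypes and cells lacking MK2 together with the related kinase MK3 (MK2/3-/-), with or without lipopolysaccharide (LPS), a bacterial cell wall component. All cells were of the C57BL/6 strain and were kept for 360 min, here in medium alone. The wt mice were 12, 13, 13 and 12 weeks old and the MK2-/- mice 10, 11, 12 and 13 weeks old, in the order of replicates 1 to 4, and all were labelled male. The knockout mice lacked the kinase in all cells, so that changes acquired before or during the growth of the macrophages are part of the comparison. RNA of each sample was hybridised to its own 1-colour Agilent array. Levels are log2 normalised signals of 1 probe per gene, so that a difference of 1 is a change of 2-fold, and signals of different genes were not compared with each other.

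MK2 is activated by the stress-responsive kinase p38 and phosphorylates proteins that bind AU-rich elements in cytokine mRNAs, among them tristetraprolin. In its phosphorylated state tristetraprolin no longer promotes the decay of these mRNAs, which include those of TNF, IL-6 and several chemokines. MK2 also phosphorylates the heat shock protein HSP27 and other regulators of the actin cytoskeleton, and it stabilises p38 itself. MK3 is a close relative with an overlapping set of substrates and is usually less abundant. Macrophages in medium express inflammatory genes at a low level, and LPS raises many of them strongly through Toll-like receptor 4.

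Between 62.7% and 75.1% of the probes were well above background on the wt arrays, and 62.8% to 75.4% on the MK2-/- arrays. No spot was saturated. The 28 tested genes of a list of 30 macrophage markers were well above background on all 8 arrays, and 25 of them had a mean above a log2 signal of 12. The mean of this list per array was 15.07 to 15.91 in wt and 15.28 to 15.65 in MK2-/- BMDM. The signal of a gene varied between replicate arrays with a median SD of 0.29 in wt and 0.35 in MK2-/- BMDM. The 4 wt arrays lay on 1 slide and the 4 MK2-/- arrays on another, so an effect of the slide and an effect of the genotype cannot be told apart in anything that follows.

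Several arrays stood apart from their group. On wt replicate 4, genes that LPS induces were raised: Il1b, which encodes the cytokine IL-1β, had a log2 signal of 14.38 on this array and of 9.71, 10.08 and 10.96 on the other wt arrays. On MK2-/- replicate 3, the Y-linked genes Ddx3y, Uty and Kdm5d each had a log2 signal of 2.01 and Eif2s3y one of 3.31, while Xist, which is expressed from the inactive X chromosome of females, reached 7.78. Ddx3y was between 10.09 and 11.15 on the other MK2-/- arrays and between 10.37 and 10.61 on the wt arrays. The signals of MK2-/- replicate 3 therefore went against its label as male, and so did those of replicate 3 of the LPS-treated MK2-/- arrays, with 1.99 for Ddx3y and 7.66 for Xist. On MK2-/- replicate 2, Kdm5d was also at the floor (1.99) and Uty was at 4.27, while Ddx3y was at 10.09. The signals of Mapkapk2 and Ctse set wt replicate 3 apart, as described below. Counts over all genes are given with and without each of these arrays, and a list's count without one of them, or the calls of its members, where the count moved by more than 1.5 times.

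The targeted gene was measured first. Mapkapk2, which encodes MK2, had a log2 normalised signal of 12.07, 12.39, 10.77 and 12.39 on wt replicates 1 to 4 and of 8.95, 9.01, 8.70 and 8.86 on MK2-/- replicates 1 to 4. The groups did not overlap, and wt replicate 3 was the nearest of the wt arrays to the knockouts. The fall was 8.13-fold (log2 difference -3.02 ± 0.29, SE, n = 4 and 4, limma adjusted p = 3.89e-05). It was -3.40 without wt replicate 3. The probe was still well above background on all 4 MK2-/- arrays, and whether it lies within the deleted part of the gene was not checked. Mapkapk3, which encodes MK3, had signals of 12.83 to 13.42 in wt and of 12.39 to 13.16 in MK2-/- BMDM. The groups overlapped, and the log2 difference was -0.24 ± 0.22 (adjusted p = 0.528).

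Ctse, which encodes the aspartic protease cathepsin E, showed the largest rise of all 22413 tested genes. Its log2 signals were 5.97, 6.53, 10.22 and 6.48 on the wt arrays and 12.60, 10.99, 11.55 and 11.79 on the MK2-/- arrays. Each MK2-/- array lay above each wt array, but wt replicate 3 lay far nearer to the knockouts than the other wt arrays did. The log2 difference was 4.43 ± 1.06 (adjusted p = 0.0174) with all arrays, 5.40 (adjusted p = 0.0088) without wt replicate 3 and 4.15 (adjusted p = 0.048) without wt replicate 4. When wt replicate 1 was left out, the difference of 3.99 missed the threshold (adjusted p = 0.0604). The same pair of signals stood out once among the LPS-treated wt arrays, where replicate 2 had 14.28 for Mapkapk2 and 9.33 for Ctse, while replicates 1 and 3 had 15.07 and 15.33 for Mapkapk2 and 2.51 and 3.73 for Ctse. The cause was not tested.

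**Figure D1:**
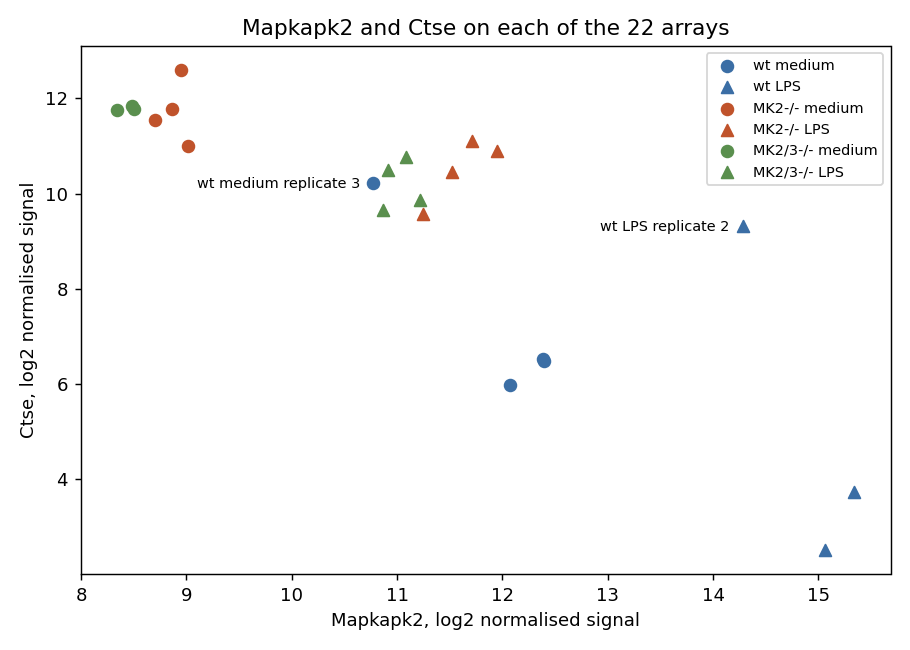
Log2 normalised signal of Ctse (vertical axis) against that of Mapkapk2 (horizontal axis) on each of the 22 arrays, coloured by genotype, with circles for medium and triangles for LPS. wt medium replicate 3 (10.77 and 10.22) and wt LPS replicate 2 (14.28 and 9.33) lie apart from the other wt arrays, towards lower Mapkapk2 and higher Ctse.

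Ctse lies on chromosome 1 near Mapkapk2, as the 8th tested gene after it in the order of the RefSeq gene table. Of the 25 tested genes on either side of Mapkapk2, 4 of 50 were called, or 8%, compared with 87 of 968, or 8.99%, of the other tested genes of chromosome 1. Under LPS, 9 of these 50 were called (18%), where 11.6% of all genes were. In medium, the calls apart from Ctse were Ubxn4, Cd55b and Rbbp5. Ubxn4, which encodes a protein of the endoplasmic reticulum degradation pathway, had signals of 5.72 to 6.46 in wt and was not well above background on any MK2-/- array. It was at least 7.66-fold lower in MK2-/- BMDM (adjusted p = 0.00403). Cd55b, which encodes a complement regulator, was higher by 0.59 ± 0.18 (adjusted p = 0.044) and Rbbp5, a subunit of histone methyltransferase complexes, lower by 0.41 (log2 difference -0.41 ± 0.13, adjusted p = 0.0484). Cd55b kept its call only in the fit without wt replicate 4 and Rbbp5 only in that without wt replicate 3, among the 8 fits that left out 1 array, with adjusted p-values up to 0.121 and 0.151. A further probe of Cd55b differed by -0.08. Il10, the tested gene directly before Mapkapk2, encodes an anti-inflammatory cytokine. It had signals of 7.05 to 8.40 in wt and 6.29 to 6.87 in MK2-/- BMDM, which did not overlap, but its log2 difference of -1.03 ± 0.44 was not called (adjusted p = 0.148).

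Across all genes, 1976 of 22413 tested genes were called at an adjusted p below 0.05, or 8.82%. They were higher in MK2-/- BMDM in 1279 cases (5.71%) and lower in 697 (3.11%). Without wt replicate 4, the fit called 1113 genes (4.97%), 751 higher (3.35%) and 362 lower (1.62%), of which 1055 had also been called with all arrays. Single arrays weighed on this count: it was 810 without wt replicate 1, 1222 without MK2-/- replicate 1 and 779 without MK2-/- replicate 2, but 1321 without wt replicate 3 and 1333 without MK2-/- replicate 3. No gene called with all arrays turned its sign in any of these fits, which share all but 1 of their arrays with the full fit. The scaling of the arrays changed the split between directions: with each array set to its 75th percentile in place of quantile normalisation, 4138 genes were called higher and 784 lower, so that 84.1% of the called genes were higher in place of 64.7%. The median difference over all genes was -0.0034 with quantile normalisation and 0.05 with the 75th percentile.

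**Figure D2:**
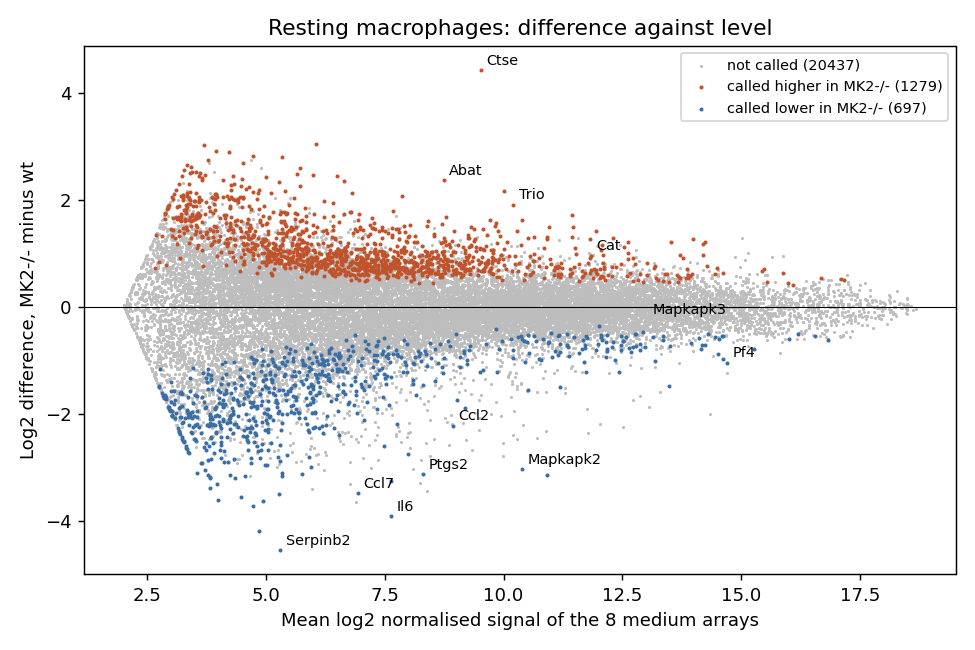
Log2 difference, MK2-/- minus wt (vertical axis), against the mean log2 normalised signal of the 8 medium arrays (horizontal axis), 1 point per tested gene, with the 1279 genes called higher and the 697 called lower in colour. Ctse has the largest rise, Serpinb2 the largest fall, and rises are commonest at a log2 signal between 6 and 8.

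The first principal component over the 8 arrays carried 41.4% of the variance and placed all wt arrays on one side and all MK2-/- arrays on the other. The 4 MK2-/- arrays did not overlap with the 4 wt arrays in 4633 genes (20.7%), of which 2944 (13.1%) were higher and 1689 (7.54%) lower. Many called genes were dim. Among genes with a mean log2 signal between 6 and 8, 9.06% were called higher and 3.32% lower, while above 12 the shares were 1.97% and 1.51%. Of the 16499 genes that were well above background on all 8 arrays, 1207 were called, 897 higher and 310 lower. The remaining 769 called genes, or 38.9%, were not well above background on at least 1 array. Called genes had 388 further kept probes, of which 228 had the same sign as the probe used, 27 were called with the same sign and 14 with the opposite sign. Spike-in RNAs, which are added in the same amount to every sample, also differed between the slides. All 8 bright spike-ins were lower on the MK2-/- arrays, with log2 differences of -1.54 to -0.45 (median -1.28), and for 6 of them no MK2-/- array reached the lowest wt array. The remaining, dim spike-ins went the other way, with log2 differences of 0.24 and 1.17. How much this bears on the genes was not tested.

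Genes of the inflammatory response were among the falls. Of 26 tested inflammatory cytokines 4 fell and none rose (15.4%, against 3.11% of all genes), with a median log2 difference of -0.67 over the list. The calls were Il6, Il1a, Tnfsf10 and Il2. CXC chemokines gave 3 falls among 11 tested members (27.3%, median -1.65) and inflammatory enzymes and effectors 6 falls among 25 (24%, median -0.78). CC chemokines gave 3 falls (23.1%) and 1 rise (7.69%, against 5.71% of all genes) among 13, with a median of -0.30. Without wt replicate 4, the falls numbered 2 for cytokines, 1 for CXC chemokines, 2 for CC chemokines and 4 for enzymes and effectors. In this order the medians were -0.25, -1.13, 0.03 and -0.39, so that the direction of the CC chemokine median turned. Without MK2-/- replicate 3, 1 CXC chemokine and 3 enzymes and effectors fell, and without wt replicate 3 there were 4 falls among the latter. With normexp background correction, 2 cytokines and 1 of the enzymes and effectors fell, and with the 75th percentile scaling 2 cytokines.

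Il6 encodes IL-6, a cytokine that drives the acute phase response. Its log2 signals were 8.52, 6.41, 10.02 and 13.36 on the wt arrays and 5.85, 5.63, 6.36 and 4.88 on the MK2-/- arrays. The groups did not overlap, but wt replicate 2 lay next to the highest knockout array and wt replicate 4 far above the other wt arrays. The log2 difference was -3.90 ± 0.87 (adjusted p = 0.0123) with all arrays and -2.64 (adjusted p = 0.0163) without wt replicate 4, and it was called in all 8 fits that left out 1 array. Il1a, which encodes IL-1α, had signals of 5.90, 4.33, 6.15 and 9.59 in wt and of 3.61, 2.17, 4.60 and 3.80 in MK2-/- BMDM. Those groups overlapped, and the difference of -2.95 ± 0.77 (adjusted p = 0.0262) became -1.92 (adjusted p = 0.0558) without wt replicate 4. It also missed the threshold without MK2-/- replicate 1 or 2, with an adjusted p up to 0.0964.

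The cytokines most often measured after LPS did not all follow. Tnf, which encodes TNF, had signals of 9.64, 10.46, 9.55 and 10.60 in wt and of 9.06, 10.72, 8.66 and 9.87 in MK2-/- BMDM. The groups overlapped and the log2 difference was -0.49 ± 0.44 (adjusted p = 0.507). Il1b differed by -1.56 ± 0.69 (adjusted p = 0.164), and by -0.53 without wt replicate 4. Il2 encodes the T cell growth factor IL-2 and Tnfsf10 the death receptor ligand TRAIL. Il2 fell by 1.84 on the log2 scale (adjusted p = 0.0119), from signals of 5.72 to 7.14 to signals of 4.41 to 4.82, and kept its call in all 8 fits that left out 1 array. Tnfsf10 differed by -2.07 ± 0.62 (adjusted p = 0.0455) and kept its call only in the fit without MK2-/- replicate 1, with an adjusted p up to 0.17 in the others.

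Chemokines that attract monocytes fell by large factors. Ccl7 had log2 signals of 9.07, 6.78, 9.03 and 9.79 in wt and of 4.22, 5.13, 5.34 and 6.08 in MK2-/- BMDM. No MK2-/- array reached the lowest wt array, and the log2 difference was -3.47 ± 0.64 (adjusted p = 0.00482), an 11.1-fold lower signal. Ccl2, which encodes the main ligand of the monocyte receptor CCR2, gave 10.49, 8.79, 9.65 and 11.23 in wt and 7.47, 8.10, 7.56 and 8.16 in MK2-/- BMDM. These groups did not overlap either, and the difference was -2.22 ± 0.43 (adjusted p = 0.0061). Without wt replicate 4 the differences of Ccl7 and Ccl2 were -3.10 and -1.82, and both were called in all 8 fits that left out 1 array. Ccl12, another ligand of this kind, differed by -1.98 ± 0.53 (adjusted p = 0.0288) and lost its call in 4 of them, without wt replicate 4 (-1.33, adjusted p = 0.0738), wt replicate 3 and MK2-/- replicates 2 and 4 (adjusted p up to 0.0794).

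The neutrophil-attracting chemokines Cxcl1 and Cxcl2 were lower as well. Cxcl1 had signals of 6.92, 6.50, 5.91 and 7.76 in wt and 5.40, 4.63, 4.15 and 5.64 in MK2-/- BMDM, with no overlap. Cxcl2 had 7.74, 7.47, 6.92 and 8.73 in wt and 6.38, 5.53, 5.34 and 7.03 in MK2-/- BMDM, with 1 knockout array just above the lowest wt array. The log2 differences were -1.82 ± 0.48 (adjusted p = 0.0266) and -1.65 ± 0.41 (adjusted p = 0.0199). Each lost its call in 4 of the 8 fits that left out 1 array, namely those without wt replicates 1 and 4 and MK2-/- replicates 2 and 3, with adjusted p-values up to 0.0812 and 0.0714. Pf4, a chemokine stored in platelets that macrophages also express, had signals of 15.50, 15.02, 15.17 and 15.22 in wt and of 13.65, 13.68, 14.68 and 14.74 in MK2-/- BMDM. The groups did not overlap, and the difference of -1.04 ± 0.24 (adjusted p = 0.0147) lost its call without wt replicate 1 or MK2-/- replicate 2 (adjusted p up to 0.0551). The exception in direction was Ccl19, a ligand of the lymphoid homing receptor CCR7, with a difference of 0.54 ± 0.15 (adjusted p = 0.0326). It lost its call without wt replicate 1 or 3 or MK2-/- replicate 1, 2 or 3 (adjusted p up to 0.11), and its further probes differed by 0.13 and -1.21.

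Serpinb2, which encodes an intracellular inhibitor of plasminogen activators, showed the largest fall of all tested genes. Its signals were 10.43, 5.59, 5.77 and 8.51 on the wt arrays and 3.56, 1.99, 3.11 and 3.49 on the MK2-/- arrays. It was well above background on all wt arrays and on none of the MK2-/- arrays. The 23.3-fold lower signal in the knockout (adjusted p = 0.00866) therefore rests on knockout signals near background. The wt arrays themselves spread widely, but the call held in all 8 fits that left out 1 array. Ptgs2, which encodes the prostaglandin-forming enzyme COX-2, had 10.65, 7.20, 9.40 and 12.19 in wt and 6.53, 5.76, 7.02 and 7.65 in MK2-/- BMDM. Replicate 4 of MK2-/- lay above replicate 2 of wt, and the difference was -3.12 ± 0.70 (adjusted p = 0.0125), or -2.35 without wt replicate 4. Pla2g4a encodes the phospholipase that releases arachidonic acid, the substrate of COX-2. It fell from 9.62 to 10.69 in wt to 8.31 to 9.38 in MK2-/- BMDM, without overlap (log2 difference -1.21 ± 0.24, adjusted p = 0.00716).

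**Figure D3:**
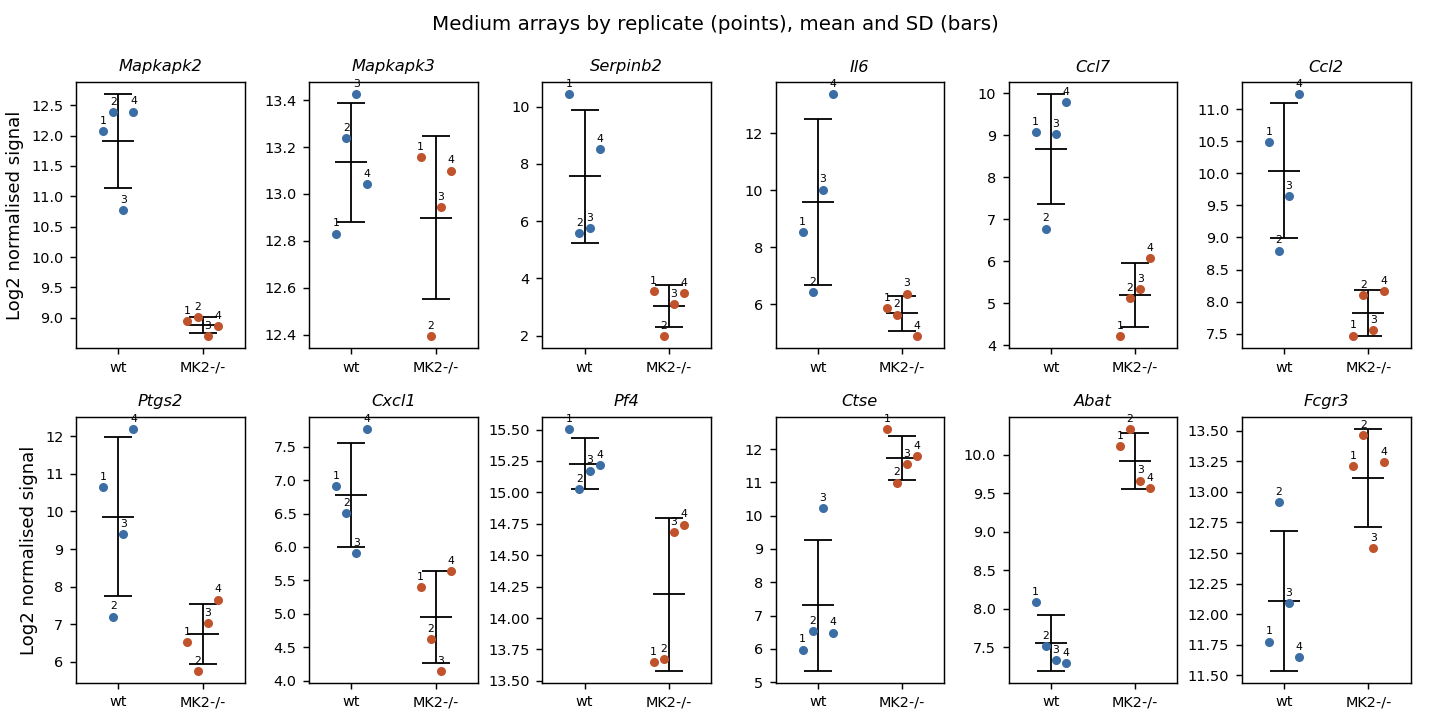
Log2 normalised signal of 12 genes on the wt and MK2-/- medium arrays, with points numbered by replicate and bars for the mean and SD of 4 arrays; each panel has its own axis, which does not start at 0. Mapkapk2 is separated by about 3 log2 units, Mapkapk3 and Fcgr3 overlap, and wt replicate 4 is the highest wt array for Il6, Ccl7, Ccl2, Ptgs2 and Cxcl1.

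Among other effectors, Vcam1 (a leukocyte adhesion molecule), Cd40 (a receptor for T cell help), Hdc (the histamine-forming enzyme) and Mmp14 (a membrane-bound matrix protease) were called lower with all arrays. Their log2 differences were -2.36, -1.74, -2.25 and -0.96. For Cd40 and Hdc the difference depended in size on wt replicate 4, where their signals were 12.40 and 10.04 against at most 9.69 and 6.90 on the other wt arrays. Without that array the differences were -0.91 and -1.28 and still called (adjusted p = 0.0401 and 0.0428). Those of Vcam1 and Mmp14 were -1.98 and -0.89 and missed the threshold (adjusted p = 0.0803 and 0.0987). Cd40 and Hdc also lost their call without wt replicate 3 and without MK2-/- replicates 2, 3 and 4, and Cd40 without MK2-/- replicate 1. Vcam1 and Mmp14 lost theirs without wt replicate 1 and MK2-/- replicates 1, 2 and 3 as well, and Mmp14 without wt replicate 2, with adjusted p-values up to 0.0998, 0.109, 0.0974 and 0.132 for the 4 genes in this order.

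Of 33 tested members of Toll-like receptor 4 and NF-κB signalling, 1 fell (3.03%, against 3.11% of all genes) and none rose (against 5.71%), with a median log2 difference of 0.09. The gene that fell was Rel, which encodes an NF-κB subunit, with signals of 5.37 to 6.22 in wt. None was well above background in MK2-/- BMDM, and the signal as measured was 4.81-fold lower (adjusted p = 0.00533). Of 24 feedback inhibitors none was called. Zc3h12a, which encodes an RNase that degrades cytokine mRNAs, fell from 8.30 to 8.76 in wt to 6.40 to 7.83 in MK2-/- BMDM (-1.22 ± 0.26, adjusted p = 0.00982). Nod1, a cytosolic receptor for bacterial cell wall fragments, fell by 0.98 on the log2 scale (adjusted p = 0.0116), and Tlr9, a receptor for bacterial DNA, was higher by 0.62 ± 0.18 (adjusted p = 0.0411). The Tlr9 call was lost without wt replicate 1, 3 or 4 or MK2-/- replicate 2 or 3 (adjusted p up to 0.128), and those of Rel, Zc3h12a and Nod1 were kept in all 8 fits that left out 1 array.

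In the p38 and MK2 pathway, 3 of 40 tested genes fell (7.5%, against 3.11% of all genes) and 1 rose (2.5%, against 5.71%), with a median of -0.12. Beside Mapkapk2 these were Mapk12, which encodes p38γ (-1.79 ± 0.50, adjusted p = 0.034), Limk1, a kinase that controls actin filaments through cofilin (-0.55 ± 0.16, adjusted p = 0.0422), and Mknk1, a kinase downstream of p38 and ERK (0.58 ± 0.17, adjusted p = 0.0369). None of these 3 kept its call without wt replicate 4, where the adjusted p-values were 0.0794, 0.0755 and 0.0685, nor without wt replicate 1 (adjusted p up to 0.142 over the fits that left out 1 array), and without MK2-/- replicate 3 the list had 1 fall and no rise. Of 10 dual-specificity phosphatases, which switch MAP kinases off, 1 fell (10%, against 3.11% of all genes) and none rose, with a median of -0.36. Dusp10 had signals of 6.20 to 7.29 in wt and 3.09 to 5.88 in MK2-/- BMDM (-1.90 ± 0.51, adjusted p = 0.0293, and up to 0.106 without wt replicate 1 or 4 or MK2-/- replicate 1 or 2). Of 26 immediate-early and AP-1 genes 2 fell (7.69%, against 3.11%) and none rose, with a median of -0.08. The falls were Fosl1 (-2.26 ± 0.56, adjusted p = 0.0207) and Maff (-1.46 ± 0.32, adjusted p = 0.0114). Maff kept its call in all 8 fits that left out 1 array, and Fosl1 lost it without wt replicate 1 or MK2-/- replicate 1 or 3 (adjusted p up to 0.0583).

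To describe the inflammatory genes without a chosen list, LPS-inducible genes were taken from arrays of neither group. They were those called in MK2/3-/- BMDM, which also lack MK2, with a rise of at least 4-fold from medium to LPS. LPS raised 20.2% of all tested genes there at any size of change. Of 1167 such genes, 83 were lower in resting MK2-/- BMDM (7.11%, against 3.11% of all genes) and 19 higher (1.63%, against 5.71%), and the median difference was -0.29. Among the 318 genes that LPS raised at least 16-fold, 48 were lower (15.1%) and none higher, with a median of -0.70. Without wt replicate 4, 32 genes of the broader class and 18 of the narrower class were lower, and the medians were -0.20 and -0.36. Of the broader class, 42 genes were lower without wt replicate 1, 28 without MK2-/- replicate 2 and 47 without MK2-/- replicate 3, and of the narrower class 25 without MK2-/- replicate 3. The number for the broader class was 78 under the 75th percentile scaling, 34 with normexp background correction and 76 in the authors' table. A gene that is low at rest without MK2 has a larger rise in MK2/3-/- BMDM and enters these classes more easily. The definition therefore tilts both classes towards falls, to an extent that was not tested.

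The median signal of the broader class was 8.65, 8.51, 8.51 and 8.91 on the wt arrays and 8.42, 8.05, 8.27 and 8.45 on the MK2-/- arrays. That of the narrower class was 7.77, 7.35, 7.36 and 8.63 in wt and 7.21, 6.39, 6.72 and 6.67 in MK2-/- BMDM. In both classes every wt array lay above every MK2-/- array, and wt replicate 4 was the highest.

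**Figure D4:**
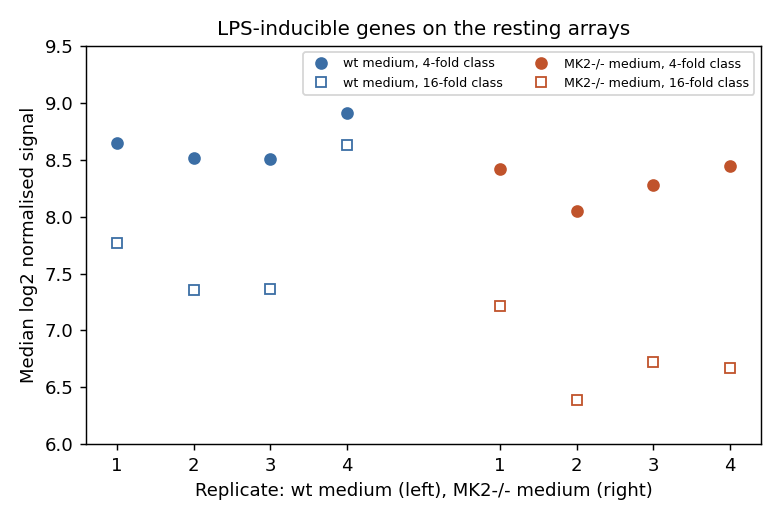
Median log2 normalised signal (vertical axis, from 6) over 1167 genes that LPS raised at least 4-fold in MK2/3-/- BMDM (circles) and over the 318 raised at least 16-fold (open squares), for each medium array. All wt arrays lie above all MK2-/- arrays in both classes, and wt replicate 4 lies above the other wt arrays.

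A binding motif of NF-κB, the transcription factor through which Toll-like receptor 4 raises many of these genes, was looked for in promoters, from 250 bases before to 50 bases after the start of transcription in RefSeq models of the mouse build GRCm38.p6. The motif searched was GGGA, any base and then TTTCC, on both strands. It was present in the promoters of 4 of 53 genes that were LPS-inducible and called lower (7.55%) and had an entry in the table, in 7 of 743 LPS-inducible genes that were not called (0.942%) and in 126 of all 27025 genes of the table (0.466%). Of the tested genes with an entry it was found in 76 of 14586 (0.521%), of all genes called lower in 4 of 399, and of those called higher in 3 of 736. The 4 genes were Il6, Cxcl1, Cxcl2 and Tnn, a matrix glycoprotein gene. The promoters of the cytokine and the chemokines described above are shown, with the motif in capitals and each read from 5′ to 3′ on the plus strand, the strand of the gene. They lie at chr5:30012864-30013163 (Il6), chr5:90890995-90891294 (Cxcl1) and chr5:90903649-90903948 (Cxcl2).
Il6: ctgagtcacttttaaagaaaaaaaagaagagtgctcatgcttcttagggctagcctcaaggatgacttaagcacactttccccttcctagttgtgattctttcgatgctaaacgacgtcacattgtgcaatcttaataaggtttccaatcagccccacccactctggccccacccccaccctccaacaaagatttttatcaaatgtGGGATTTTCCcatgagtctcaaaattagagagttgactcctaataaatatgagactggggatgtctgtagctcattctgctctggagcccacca
Cxcl1: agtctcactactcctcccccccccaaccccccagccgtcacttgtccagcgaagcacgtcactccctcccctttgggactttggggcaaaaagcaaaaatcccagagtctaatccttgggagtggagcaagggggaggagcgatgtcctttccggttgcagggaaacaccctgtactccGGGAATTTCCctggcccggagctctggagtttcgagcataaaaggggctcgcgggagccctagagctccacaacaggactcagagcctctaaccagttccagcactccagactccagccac
Cxcl2: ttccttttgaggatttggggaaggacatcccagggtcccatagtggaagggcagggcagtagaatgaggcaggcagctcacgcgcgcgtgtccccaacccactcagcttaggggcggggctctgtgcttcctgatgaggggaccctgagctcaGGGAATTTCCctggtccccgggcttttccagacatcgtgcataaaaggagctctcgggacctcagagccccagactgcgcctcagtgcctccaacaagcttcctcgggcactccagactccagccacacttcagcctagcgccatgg

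The match begins 44, 71 and 97 bases before the start of transcription in Il6, Cxcl1 and Cxcl2. A match of these letters describes the sequence and not the binding of a factor, and 49 of the 53 genes held none in this window. Ccl2 and Ccl7 had no entry in the promoter table.

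Falls outside the inflammatory response included genes of other functions and many dim probes. Aurkb, which encodes the mitotic kinase Aurora B, had signals of 5.78, 4.79, 5.40 and 6.12 in wt and of 2.03, 1.99, 2.49 and 2.03 in MK2-/- BMDM, at least 7.51-fold lower (adjusted p = 0.000324). Ccne2, a cyclin of the entry into S phase, was well above background on 2 of the 4 wt arrays and on no MK2-/- array (at least 4.44-fold lower, adjusted p = 0.00133). These were the only calls among 43 tested proliferation genes (4.65% lower, against 3.11% of all genes), whose median difference was -0.07. Doc2b, a calcium sensor of exocytosis, and Sparcl1, a matrix glycoprotein, were at least 6.55-fold and at least 8.35-fold lower, and Smg8, a subunit of the kinase complex of nonsense-mediated mRNA decay, was lower by 3.61 (log2 difference -3.61 ± 0.50, adjusted p = 0.00107). U90926, a transcript that LPS induces, was at least 13.1-fold lower (adjusted p = 0.00132). Each of these 6 genes kept its call in all 8 fits that left out 1 array.

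Rap1a and Npy4r fell with all 8 arrays well above background. Rap1a, which encodes a small GTPase of adhesion signalling, had signals of 7.86 to 8.53 in wt and of 5.39 to 7.12 in MK2-/- BMDM (-1.91 ± 0.39, adjusted p = 0.00784). Npy4r, a receptor of the neuropeptide Y family, was tight in both groups, with 6.99 to 7.73 in wt and 5.01 to 5.10 in MK2-/- BMDM (-2.22 ± 0.35, adjusted p = 0.00224). Lyve1, the hyaluronan receptor of some resident macrophages, was well above background on 2 of the 4 wt arrays and on no MK2-/- array, and its wt signals were 4.11 to 4.92. Oas1g, an interferon-induced gene, was lower by 1.02 (log2 difference -1.02, adjusted p = 0.0172) and lost its call without wt replicate 1 or MK2-/- replicate 2 (adjusted p up to 0.0548). Of the 123 called genes named by the rule, 71 kept their call in all 8 fits that left out 1 array. Part of them were chosen because their call held without wt replicate 4, so this share is higher than that of all called genes. Of all 1976, 1055 kept their call without wt replicate 4 and 725 without MK2-/- replicate 2.

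Rises were more numerous than falls but smaller. Among genes well above background on all 8 arrays, the largest rise after that of Ctse was seen for Abat, which encodes the transaminase that degrades GABA. Its signals were 8.08, 7.51, 7.33 and 7.29 in wt and 10.11, 10.33, 9.66 and 9.57 in MK2-/- BMDM, which did not overlap. The log2 difference was 2.37 ± 0.42 (adjusted p = 0.00403), and Abat kept its call in all 8 fits that left out 1 array. Soat1, which esterifies cholesterol for storage, rose from 9.62 to 10.41 in wt to 11.02 to 11.58 in MK2-/- BMDM (1.32 ± 0.26, adjusted p = 0.00728). Cat, which encodes the hydrogen peroxide-degrading enzyme catalase, rose from 11.04 to 11.54 to 12.12 to 12.55 (0.96 ± 0.19, adjusted p = 0.00623).

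Several rises concerned genes of signalling and of other tissues, again without overlap between the groups. Kitl, which encodes stem cell factor, rose by 1.68 ± 0.34 (adjusted p = 0.00704). Trio, a guanine nucleotide exchange factor for small GTPases, had signals of 8.69 to 10.35 in wt and of 10.88 to 11.41 in MK2-/- BMDM (1.91 ± 0.36, adjusted p = 0.00533), but its further probes differed by -0.18 and -0.05. Camk2a, a neuronal calcium-dependent kinase, and Grm5, a glutamate receptor, rose by 2.14 ± 0.39 and 1.80 ± 0.26, and further probes well above background differed by 0.38 and 0.64. Dnmt3b, a DNA methyltransferase, rose by 1.35 ± 0.21 (adjusted p = 0.00211), with further probes at 0.15 and -0.43. For Unc5c, an axon guidance receptor, the probe used gave 2.47 ± 0.52 (adjusted p = 0.00929) and a further probe -2.20 (adjusted p = 0.0466), so that no direction can be given for the gene.

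Genes known from lymphoid cells were among the rises. Of 20 tested T and NK cell markers 4 rose (20%, against 5.71% of all genes) and none fell, and of 15 B cell markers 4 rose (26.7%) and 2 fell (13.3%, against 3.11%). The medians of these lists were 0.21 and 0.06, and 6 of the 20 and 7 of the 15 genes had a negative difference. The T cell markers Cd4, Il7r and Lck differed by only 0.15, 0.12 and 0.26 and were not called. The B cell counts were 2 rises and 2 falls without wt replicate 3, 1 rise and 2 falls without MK2-/- replicate 3, and 6 rises and no fall under the 75th percentile scaling. Cd3e, a subunit of the T cell receptor complex, had signals of 9.71 to 10.63 in wt and of 11.03 to 12.25 in MK2-/- BMDM (1.31 ± 0.29, adjusted p = 0.0108). Nkg7, a protein of cytotoxic granules, rose by 0.99 ± 0.18 (adjusted p = 0.00465) and Zap70, a kinase of T cell receptor signalling, by 0.82 ± 0.17 (adjusted p = 0.00805). The mean of the T and NK cell list per array was 6.38 to 6.55 in wt and 6.46 to 7.05 in MK2-/- BMDM, and that of the B cell list was 6.10 to 6.37 and 5.82 to 6.04. The B cell means therefore lay lower in the knockout while its single calls went both ways. The falls were Pax5 and Cr2 (-1.77 and -1.27), but a further probe of each differed by 1.26 and 0.62 and was not called. More or fewer cells of a type and more or less RNA per cell cannot be told apart in these bulk samples.

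Erythroid markers gave 2 rises among 10 tested genes (20%, against 5.71% of all genes), 1 without wt replicate 3 or MK2-/- replicate 3 and 4 under the 75th percentile scaling. The 2 were Hba-a1, which encodes α-globin (1.37 ± 0.25, adjusted p = 0.00462), and the anion exchanger Slc4a1 (0.71 ± 0.20, adjusted p = 0.0354). Hba-a2, another α-globin gene, differed by only 0.05 (adjusted p = 0.94), and 3 of the 10 genes had a negative difference. Slc4a1 lost its call without wt replicate 1, 2 or 3 or MK2-/- replicate 2 or 3 (adjusted p up to 0.118). The means of this list overlapped between the groups, with 5.63 to 6.21 in wt and 5.73 to 6.30 in MK2-/- BMDM. Neutrophil markers had means of 7.20 to 8.01 in wt and of 6.76 to 7.79 in MK2-/- BMDM. Their part in the results was not tested.

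Genes of large families are given next, chosen for description after their values had been seen. Macrophages are not known to use those of the olfactory, vomeronasal and keratin families. Over all genes, 5.71% were called higher and 3.11% lower. Of 679 tested olfactory receptor genes (symbols Olfr), 94 were higher (13.8%) and 19 lower (2.8%), at median signals of 4.68 in wt and 5.00 in MK2-/- BMDM. Their median difference was 0.54 with quantile normalisation, 1.13 with the 75th percentile, 0.15 with normexp background correction and 0.52 in the authors' table, and 328, 51 and 79 of them were called higher under these 3 alternatives. Vomeronasal receptor genes (Vmn) gave 17 higher (10.2%) and 4 lower (2.4%) among 167, and keratin genes (Krt) 9 (18.8%) and 1 (2.08%) among 48. Zinc finger genes of the Zfp series, a family that these cells do express, gave 3 higher (0.843%) and 5 lower (1.4%) among 356 (median -0.20). Of these 356 genes, 316 were well above background on all 8 arrays. Without wt replicate 4, 59 Olfr genes were higher and 11 lower, and 4 Krt genes were higher. In that fit 2 Vmn and 3 Zfp genes were lower. Without wt replicate 3, 10 Olfr genes were lower and 11 Vmn genes higher, and without MK2-/- replicate 3, 59 Olfr genes were higher. The members of the receptor families are similar in sequence, so a probe may read more than 1 of them.

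Of 28 macrophage markers 3 were called, all higher (10.7%, against 5.71% of all genes), and the list's median was -0.02. Fcgr3, a low-affinity receptor for IgG, had signals of 11.78, 12.92, 12.09 and 11.65 in wt and of 13.21, 13.46, 12.54 and 13.24 in MK2-/- BMDM. Those groups overlapped, and the log2 difference was 1.00 ± 0.28 (adjusted p = 0.0334). Laptm5, a lysosomal membrane protein of blood cells, differed by 0.63 ± 0.18 (adjusted p = 0.0413) and Itgam, the integrin chain CD11b, by 0.92 ± 0.28 (adjusted p = 0.0495, with wt replicate 2 missing from the fit because its spot was marked). Cybb, the catalytic subunit of the NADPH oxidase, differed by 0.92 ± 0.26 (adjusted p = 0.0367). None of these 4 was called without wt replicate 4, where the adjusted p-values were 0.0953, 0.109, 0.125 and 0.093, and without wt replicate 3 there was 1 rise in the list and without MK2-/- replicate 3 there were 2. Under the 75th percentile scaling no macrophage marker was called higher and 1 was called lower.

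The growth factor receptor Kdr and the leptin receptor Lepr were the rises among 20 stromal markers, or 10%, against 5.71% of all genes. Their log2 differences were 1.22 ± 0.28 (adjusted p = 0.0149) and 1.09 ± 0.32 (adjusted p = 0.0407), whereas the median of the list was -1.12. Kdr lost its call without wt replicate 1 or MK2-/- replicate 2 (adjusted p up to 0.0531) and Lepr without wt replicate 1 or 4 or MK2-/- replicate 1, 2 or 3 (up to 0.14), and another kept probe of Kdr differed by -0.46. The mean of the stromal list was 10.60, 7.93, 8.99 and 9.39 on the wt arrays and 7.92, 7.22, 8.37 and 9.32 on the MK2-/- arrays, which overlapped. Sparc, a matrix protein of mesenchymal cells, had signals of 17.51, 12.97, 15.24 and 15.67 in wt and 12.47, 11.65, 13.86 and 15.43 in MK2-/- BMDM. Its log2 difference of -1.99 ± 1.42 was not called (adjusted p = 0.392). Genes of the cytoskeleton and targets of serum response factor had a median of -1.33, and 25 of 27 had a negative difference, but none was called. The stromal mean was highest on wt replicate 1, and its part in the results was not tested. No call was made among 39 ribosomal protein genes, 12 genes of MHC class II presentation, 20 of MHC class I presentation or 16 chemokine receptors. Without wt replicate 4, 1 gene of MHC class I presentation was called higher.

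**Figure D5:**
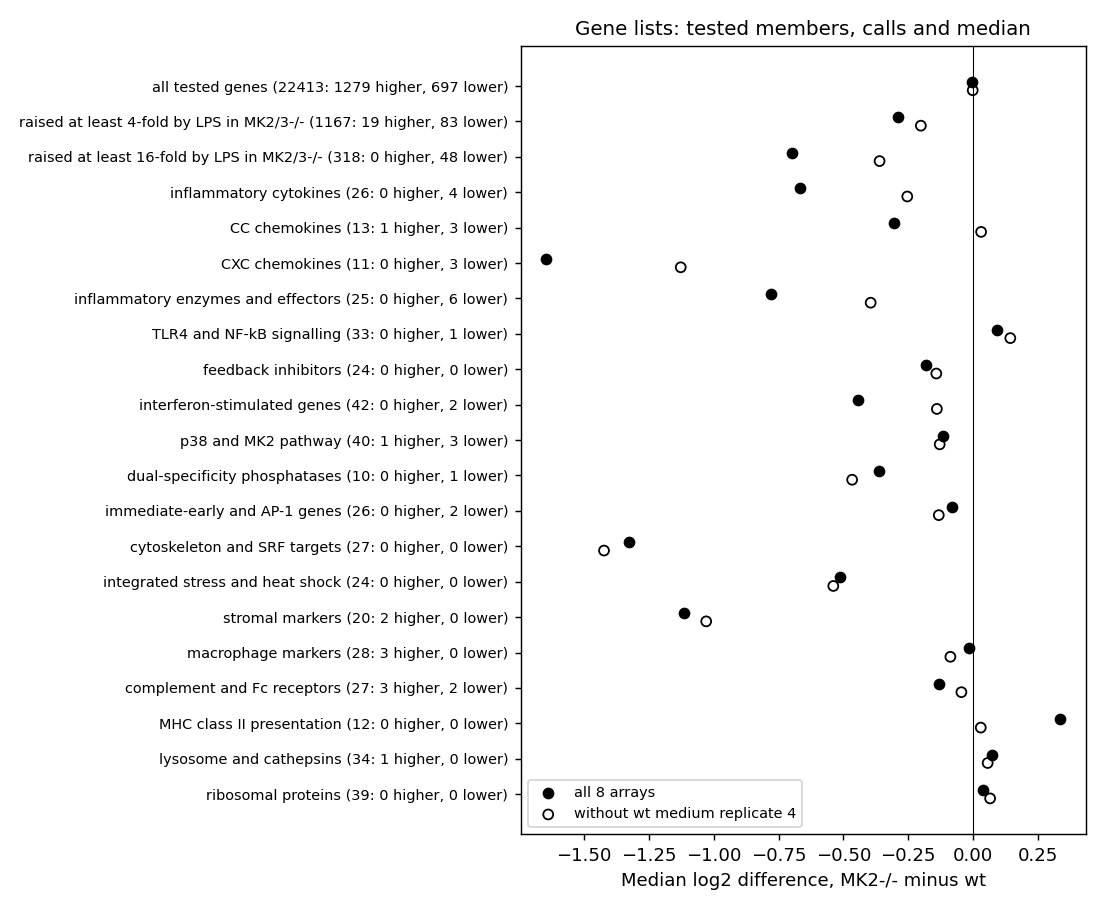
Median log2 difference, MK2-/- minus wt (horizontal axis), over the tested members of each gene list (vertical axis, with the number tested and the numbers called higher and lower), with all 8 arrays (filled) and without wt replicate 4 (open). Medians of the inflammatory lists lie below 0 and move towards 0 without that array, whereas the cytoskeletal and stromal medians stay near -1.3 and -1.1.

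The same genotypes were also compared on the LPS-treated arrays, which share no sample with the medium arrays but lie on the same slides. They may share mice with them: the MK2-/- mice were 10, 11, 12 and 13 weeks old by replicate number in both treatments, and replicate 3 went against its male label in both. The mice of wt replicates 1 and 2 were also 12 and 13 weeks old in both treatments. The following shares are therefore not from independent animals as far as the labels show. Of the 1279 genes higher in resting MK2-/- BMDM, 1245 (97.3%) had the same sign under LPS and 469 (36.7%) were called with it, where 4.52% of all tested genes were called higher. Of the 697 lower genes, 650 (93.3%) had the same sign and 296 (42.5%) were called with it, where 7.05% of all tested genes were called lower. 11.6% of the genes were called in that comparison. None of the genes called at rest was called in the opposite direction under LPS. Over all tested genes 73.4% had the same sign, and 200 were called under LPS with the sign opposite to their resting difference. Mapkapk2 differed by -3.28 and Ctse by 5.32 on these arrays.

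The LPS-inducible genes differed from the other falls in this respect. Of the 83 LPS-inducible genes that were lower at rest, 51 (61.4%) had the same sign under LPS and 4 (4.82%) were called, and their median difference went from -1.72 in medium to -0.17 under LPS. Of the other 614 lower genes, 599 (97.6%) had the same sign and 292 (47.6%) were called, with medians of -1.51 and -1.13. Il6 differed by -3.90 in medium and by 0.14 under LPS, where its signals were 17.52 to 17.81 in wt and 17.60 to 18.02 in MK2-/- BMDM. Ccl2 and Ccl7 differed by -0.57 and -1.07 under LPS and were not called there (adjusted p = 0.437 and 0.313). The test of the difference itself, the interaction of genotype and treatment in limma, called 0 of 22413 genes, with 1686 (7.52%) at an unadjusted p under 0.05, 47 of them among the 83 genes. The smallest adjusted p among these 83 was 0.098, and that of Il6 was 0.436. The 83 genes were chosen by their resting difference, which is itself a part of the interaction. Small unadjusted p-values are therefore more frequent among them by selection, and no conclusion is drawn from the 47. With the number of the MK2-/- medium and LPS arrays as a random block, the test again called 0 genes, with 1749 at an unadjusted p under 0.05 and a smallest adjusted p of 0.0823 among the 83.

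Resting MK2/3-/- BMDM were compared with the same 4 wt arrays, so the following values share their controls. In that comparison 452 genes were called (2.02%). Ccl7 differed by -3.77 (adjusted p = 0.0139), Ccl2 by -1.84 (adjusted p = 0.0464), Serpinb2 by -4.57 (adjusted p = 0.0339), Ctse by 4.48 (adjusted p = 0.0491) and Abat by 1.82 (adjusted p = 0.0444) in MK2/3-/- BMDM. Il6 differed by -3.63 and was not called (adjusted p = 0.0523). U90926, Aurkb and Doc2b, which were at background in MK2-/- BMDM, differed by -0.14, -0.85 and 0.37 there. Among the genes called lower in MK2-/- BMDM, the median difference in MK2/3-/- BMDM was -0.79 for the 83 LPS-inducible genes and -0.10 for the other 614. Among the 1260 genes that were called higher and not LPS-inducible, it was 0.69, beside 0.96 in MK2-/- BMDM. The LPS-inducible class was set with these same MK2/3-/- medium arrays, so its median here is not independent of its definition.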

How the data were processed

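Cy3-labelled RNA of each sample was hybridised to its own 1-colour Agilent mouse array. The deposited scanner files give, per spot, processed signal intensities that the authors obtained with Agilent Feature Extraction (version 11.0.1.1 in the submitters' processing notes), corrected for background and not normalised between arrays. A second file, used as an alternative, holds log2 values that the authors had quantile normalised and, by their methods, centred on each probe's median over all samples. Groups were taken from the sample titles, which give 4 MK2-/- medium samples. The series' design text counts 3 for this group, under array names that the samples give to the wt LPS arrays, and this was not resolved.

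Control spots were left out and marked spots set to missing. Processed signals of the 22 arrays were put on the log2 scale and quantile normalised together, since the methods name this normalisation. Probes with an NCBI accession were kept if well above background on at least 3 arrays, and the probe with the highest mean stood for its gene, which left 22413 genes. Names came from the RefSeq gene table of GRCm38.p6. A model with 1 mean for each of 6 groups was fitted with limma 3.58.1 (lmFit and eBayes) in R 4.3.3, with data.table, version 1.17.8. Genes were called at a two-sided Benjamini-Hochberg adjusted p below 0.05 over all tested genes, and every adjusted p in the text is from this test. SE is the standard error from limma. The model was tested on simulated data. The methods name independent experiments, but the labels do not name the mouse of a sample, so the p-values measure the spread between these arrays, and the model takes medium and LPS arrays as independent. Ages and Y-linked signals of the MK2-/- arrays leave it possible that equal numbers share a mouse, which an alternative took into account. The ages of wt replicates 1 and 2 were also equal in both treatments, and that alternative left the wt arrays unpaired. The number of arrays, 4 per resting group, limits the precision. A fold given as "at least" compares the brighter group's mean with a floor for the dim group. The floor is the mean over its arrays of the lowest signal well above background, or of the dim probe's own signal where that is higher. Some probes with signals above that lowest signal were still not well above background, so such a fold is only an approximate bound.

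Members and gene lists were chosen with earlier results of these data known. Genes were named if they were Mapkapk2 or Mapkapk3, the 12 largest rises and 12 largest falls (called with and without wt replicate 4, not overlapping, and well above background in the higher group), up to 6 called members of each list and the brightest marker of other cell types, called neighbours of Mapkapk2, the 8 calls that changed most without wt replicate 4, or sex-linked. The largest changes among genes well above background on all 8 arrays, and a few further genes (Tnf, Il1b, Il10, Zc3h12a, Pla2g4a, Soat1, Dnmt3b, Cybb, Ccl22), were chosen after their values were seen. A gene that this rule named, and the count of its list, are not reported here. The 16-fold class of LPS-inducible genes was also set after the values were seen. Alternatives were other scalings, filters, tests and sets of arrays. The methods' t-test was run on the same values.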

Additional observations from a re-analysis of the deposited data

Results flagged for a closer look

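Among 301 groups of 4 arrays tested over the named genes, 15 (4.98%) held an array far from the others, where chance gives about 1 in 20. Several concern arrays described above. Ctse on wt replicate 3 was at a log2 signal of 10.22, with the other wt arrays at 5.97 to 6.53. The same array had 11.59 for Eif2s3y (others 12.16 to 12.26), 3.57 for Xist (others 1.99 to 2.25) and 2.04 for Caly (others 6.32 to 6.93). On MK2-/- replicate 3, Ddx3y was at 2.01 (others 10.09 to 11.15) and Eif2s3y at 3.31 (others 11.09 to 12.38), and Aurkb was at 2.49 with the others at 1.99 to 2.03.

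The remaining arrays stood apart for single genes. MK2-/- replicate 1 had 4.11 for Ccl22, 2.94 for Gfi1 and 3.02 for Ifi214, each with the others at 1.99 to 2.03, and 4.2 for Prtn3 (others 3.04 to 3.09). MK2-/- replicate 2 had 12.16 for Tlr9 (others 11.27 to 11.33), 6.40 for Zc3h12a (others 7.60 to 7.83) and 2.83 for Doc2b (others 2.01 to 2.03). Uty on wt replicate 2 was at 7.21, with the others at 7.08 to 7.10. Signals near 2 are at the floor of the arrays, where values have no order.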

How the results depend on the processing

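No gene called among the 1976 changed its sign under any alternative, nor did any of the 123 called genes among the 141 named. The alternatives reuse the same arrays, so a called gene had little room to turn. Named genes that were not called could turn, as Ddx3y did from -2.06 to 0.08 without MK2-/- replicate 3. The number of called genes lay between 1459 and 2225 with normexp, the authors' table, other filters, all probes, marked spots kept or only the 8 medium arrays. It was 4922 with the 75th percentile scaling, 2997 with array weights, 1110 with an added 2-fold threshold, 5643 and 774 by the methods' t-test before and after Benjamini-Hochberg adjustment, and 138 with age as a covariate (58 higher and 80 lower). Leaving out 1 array gave 779 to 1919. Alternatives chosen after seeing the data gave 1237 with genes well above background on all 8 arrays, 670 without wt replicate 4 and MK2-/- replicate 3, and 221 without wt replicate 3 as well. LPS-inducible genes called lower (83) numbered 34 with normexp, 31 with the 8 medium arrays, 127 with array weights, 131 and 7 by the t-test before and after adjustment, 3 with age, 44, 23 and 9 in the alternatives chosen later, and 28 to 83 without 1 array. Without wt replicate 4 (1113), the counts were 3863 with the 75th percentile, 607 with normexp, 1960 with array weights and 631 with genes well above background on all 8 arrays. The comparison under LPS (2595) gave 4770 with the 75th percentile and 6422 with array weights, and array weights alone called interactions (96). The causes were not tested. Fits restricted to fewer arrays have fewer degrees of freedom.

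The replicate numbers did not pair the samples: deviations of same-numbered wt and MK2-/- arrays correlated with r of 0.022, 0.21, 0.017 and -0.081. With the replicate number as a block, 88 genes were called, 36 higher and 52 lower, among them 3 LPS-inducible genes called lower. Between the medium and LPS arrays of MK2-/- BMDM, same-numbered deviations correlated with r of 0.304, 0.03, -0.085 and 0.148. In wt BMDM, r was 0.369, 0.267 and -0.035 for replicates 1 to 3. With the MK2-/- numbers as a random block, chosen after seeing the data, 1967 genes were called at rest and 2584 under LPS, and no interaction. That block left the wt arrays unpaired, so a sharing of mice among them was not taken into account.

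Genes below background in a group have only an approximate bound, and 38.9% of the called genes were not well above background on all 8 arrays. Slide and genotype cannot be told apart.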
